A study of Mus musculus with 201 samples.

Results

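Hippocampal transcripts of BXD mice were compared between the strains of the earlier series and those added later. The BXD panel consists of recombinant inbred strains from a cross of C57BL/6J with DBA/2J, so that each line has fixed its own mixture of the alleles of both parents. Strains were assigned by number from their labels: BXD1 to BXD42 formed the earlier set, with 29 strains on 58 arrays, and every BXD label from BXD43 upward formed the later set, with 39 strains on 76 arrays. The latter included BXD48a, BXD65a, BXD65b and BXD73a, which are sister substrains of other members. These 68 strains belong to a survey of 100 strains on 201 Affymetrix M430 2.0 arrays. Each BXD array carried RNA pooled from the hippocampi of 2 to 4 mice. The labels give no treatment and no transgene for any of these strains. Per the labels' protocols the earlier strains were fully inbred, whereas 14 of the later lines were still between generations F14 and F20 and may have kept unfixed loci. The protocol text counts 27 earlier strains, and the labels used here give 29.

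Pools of the earlier set had a median age of 59 days (55 to 196) and those of the later set 65 days (54 to 193). Both sexes and all 7 processing batches were represented in both sets. The labelled animal source, in contrast, followed the sets closely. The source was Glenn for 41 of the 58 earlier arrays and for 2 of the 76 later arrays, and it was UTM RW for 6 earlier and 74 later arrays. The share of probe sets called present had a median of 50.3% in each set, and the ACTB 3′/5′ ratio, a measure of RNA integrity, had medians of 1.30 and 1.32. The headers of the deposited table gave another strain for both BXD14 arrays and another batch for the BXD13 male array. None of these moved an array between the sets. Both BXD14 arrays are labelled UTM RW, and their header strain is another earlier strain with that source. Without the array of mixed sex, they are among the 5 earlier arrays in the comparisons of UTM RW arrays alone. By the headers that subset would hold fewer earlier strains than by the labels.

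Values are PDNN scores, a log-like summary of the probes of each probe set whose base no label or file header states. Differences are therefore in PDNN units, later minus earlier, and are not fold changes. The strain was the replicate: each strain value came from its arrays after adjustment for sex and batch, and the SE of a difference reflects the spread among strains. An array shows level relative to the rest of its own probe sets. In whole tissue, fewer cells of a type and less RNA per cell cannot be told apart.

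Transcripts of the circadian clock, of blood vessels, of the choroid plexus and of a stretch of chromosome 4 were among those that differed. The gene lists were chosen with earlier results of these data known, and the limits of that stretch after its values were seen. Counts within them are therefore no independent test. The marker lists of neurons, astrocytes and oligodendrocytes had no called member, which lists of their size can show when 0.631% of all probe sets are called. Of 45037 probe sets, 284 were called between the sets at an adjusted p below 0.05 (limma with Benjamini-Hochberg adjustment), which is 0.631% of those tested. In the later set 173 were higher (0.384%) and 111 were lower (0.246%). At an unadjusted p below 0.05 there were 4388. The differences were small: the median absolute difference of the calls was 0.083 units, while the median over all probe sets was -0.0041. With the labelled source as a covariate in a model on arrays, 79 probe sets were called, 30 of them among the 284, and 282 of the 284 kept their sign. That model took 1 correlation of 0.038 between arrays of a strain for all probe sets. Without the source it called 771. Its p-values do not rest on strains as replicates, and they may be too small where arrays of a strain are more alike. Of the 284, 213 had an unadjusted p below 0.05 in the model with source, and the median ratio of its difference to the main one was 1.13. The 284 were called on these same arrays, so that the kept signs, the unadjusted p and the ratio are no independent test.

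The circadian clock is a feedback loop in which the activators CLOCK and ARNTL drive the Per and Cry repressors, the nuclear receptors Nr1d1 and Nr1d2 repress Arntl, and output factors such as DBP carry the rhythm to other genes. Its transcripts cycle over the day in most tissues, hippocampus included. Per the labels' protocols all animals were killed in the light phase, between 9 AM and 5 PM, and the hour of each pool is not among the labels used here. The part of the hour in the differences that follow was not tested.

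Of the 12 clock genes measured, 5 were higher in the later set, 1 was lower and 6 were not called, with a median difference of 0.090 units. Over all probe sets 0.384% were called higher and 0.246% lower. Dbp, the PAR bZIP output factor, ranged from 8.77 in BXD42 to 9.64 in BXD27 among earlier strains, with a median of 9.05. Later strains ran from 9.01 in BXD86 to 9.73 in BXD79, with a median of 9.45. Of the 39 later strains 38 lay above the earlier median, yet the ranges overlapped. The difference was 0.332 ± 0.045 (SE; n = 29 and 39 strains, limma adjusted p = 5.76e-06) and was positive within each of the 7 batches, where it ran from 0.069 to 0.489.

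Ciart, a repressor of CLOCK and ARNTL activity, had a median of 7.83 in earlier strains (7.73 to 8.10) and 8.01 in later strains (7.84 to 8.17). All 39 later strains were above the earlier median, and the difference was 0.145 ± 0.020 (SE, limma adjusted p = 8.1e-06). Nr1d2, which encodes REV-ERB beta, rose by 0.148 ± 0.024, with 38 of 39 later strains above the earlier median. Per1 and Per2, the period repressors, rose by 0.127 ± 0.025 and 0.102 ± 0.025. Arntl, the activator that is repressed by the REV-ERB receptors, fell by 0.085 ± 0.020, and 33 of 39 later strains were below the earlier median. Per3 (0.088, limma adjusted p = 0.625) and Nr1d1 (0.092, adjusted p = 0.0686) did not pass, and Clock itself differed by 0.0004 ± 0.013.

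None of the 12 clock genes was called with source as a covariate, where Dbp differed by 0.256 (adjusted p = 0.116) and Nr1d2 by 0.136 (adjusted p = 0.186), although the median of the list, 0.090, was the same. UTM RW arrays alone hold 39 later and, by label, 3 earlier strains, among them BXD14 with its disagreeing headers. In this subset Dbp differed by 0.291 and Nr1d2 by 0.176, while Per1 and Arntl turned sign at -0.0054 and 0.035. Neither of these values was called.

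Promoters of 3 of the clock genes that rose are shown because CLOCK and ARNTL act through the E-box CACGTG. The sequences are the 250 bases before the annotated start in RefSeq on GRCm38.p6, read 5′ to 3′ on the gene's strand, with E-boxes in capitals. The windows are chr3:95882229-95882478 (minus strand) for Ciart, chr11:69098699-69098948 (plus strand) for the upstream of 2 annotated Per1 starts, and chr7:45704997-45705246 (plus strand) for Dbp.
Ciart: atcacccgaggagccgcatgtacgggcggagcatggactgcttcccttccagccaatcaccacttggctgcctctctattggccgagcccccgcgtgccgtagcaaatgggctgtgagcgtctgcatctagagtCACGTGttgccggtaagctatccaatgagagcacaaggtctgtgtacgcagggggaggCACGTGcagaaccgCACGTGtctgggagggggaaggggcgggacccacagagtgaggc
Per1: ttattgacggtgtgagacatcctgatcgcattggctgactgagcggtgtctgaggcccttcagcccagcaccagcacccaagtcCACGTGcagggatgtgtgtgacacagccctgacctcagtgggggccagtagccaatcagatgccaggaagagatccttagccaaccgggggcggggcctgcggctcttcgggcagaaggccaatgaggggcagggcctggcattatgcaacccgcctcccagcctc
Dbp: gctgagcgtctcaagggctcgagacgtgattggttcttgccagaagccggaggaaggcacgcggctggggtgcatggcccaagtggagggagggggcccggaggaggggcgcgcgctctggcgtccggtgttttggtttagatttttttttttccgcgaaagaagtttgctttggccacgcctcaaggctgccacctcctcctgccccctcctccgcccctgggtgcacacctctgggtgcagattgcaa
The Ciart window held 3 E-boxes, the Per1 window 1 and the Dbp window none, searched on both strands. The window of Nr1d2, which also rose, and that of the other Per1 start held none either, and neither did those of the 2 starts of Arntl, which fell. Per2 had no entry. Of 32851 annotated promoters, 6.02% held at least 1 E-box in the same window. A match is a string of letters and not a shown site, and its absence speaks only for this window.

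Genes of the corticosteroid response, the receptors Nr3c1 and Nr3c2 among them, were listed beside the clock because adrenal hormone also follows the day. Of 12 measured, Tsc22d3, the leucine-zipper protein GILZ, rose by 0.148 ± 0.031 (SE, limma adjusted p = 0.00659) and the other 11 were not called. The share called over all probe sets was 0.631%. Tsc22d3 differed by 0.182 with source as a covariate and was not called (adjusted p = 0.178). The median of the list was 0.066. Sgk1 differed by 0.122 (adjusted p = 0.139) and Fkbp5 by 0.062 (adjusted p = 0.188). The 12 immediate early genes, which mark recent neuronal activity, had no call and a median of 0.0099.

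**Figure D1:**
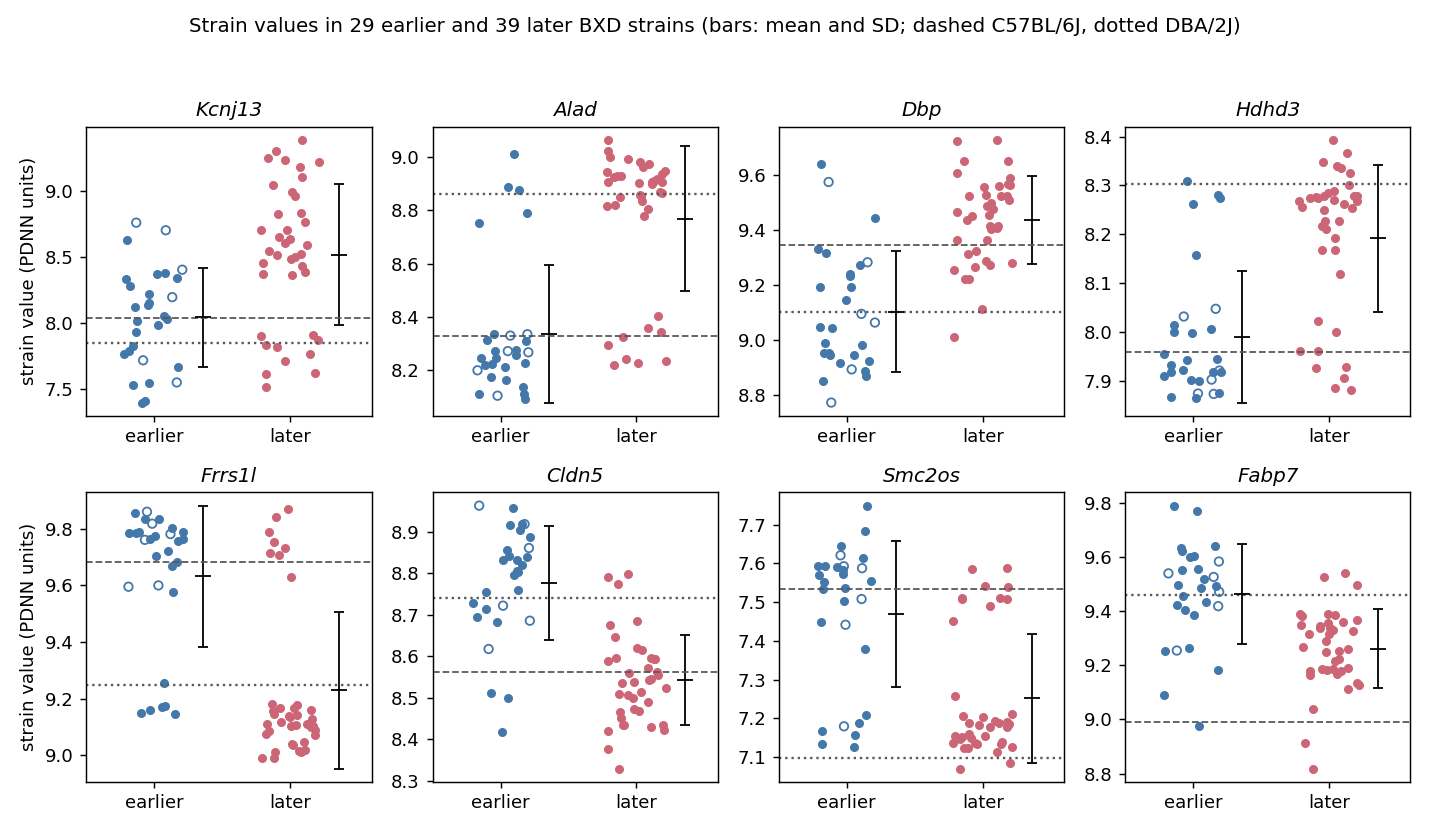
Each point is the PDNN value of a strain (y axis, PDNN units), for 29 earlier strains (blue, open circles for BXD33 to BXD42) and 39 later strains (red); bars give the mean and SD of each set, and lines the levels of C57BL/6J (dashed) and DBA/2J (dotted). Dbp, Cldn5 and Fabp7 shift as a whole with overlapping ranges, whereas Alad, Hdhd3, Frrs1l and Smc2os fall into separate levels near those of the parents, with unequal numbers of strains at each.

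Several blood vessel transcripts fell in the later set. Endothelial cells form the blood-brain barrier, sealed by tight junctions. Of 8 endothelial markers measured, 4 were lower, none was higher and 4 were not called, with a median of -0.051 units. Over all probe sets 0.246% were called lower and 0.384% higher. Cldn5, the main claudin of the barrier's tight junctions, had the smallest adjusted p of all probe sets named here. Its earlier strains ran from 8.42 in BXD9 to 8.96 in BXD38 with a median of 8.80, and its later strains from 8.33 in BXD73 to 8.80 in BXD51 with a median of 8.54. All 39 later strains lay below the earlier median, although the lowest earlier strains were within the later range. The difference was -0.234 ± 0.029 (SE, limma adjusted p = 6.38e-07), and it was negative in all 7 batches, from -0.413 to -0.144.

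Flt1, a receptor for VEGF, fell by 0.125 ± 0.020, with 36 of 39 later strains below the earlier median. Tek, the angiopoietin receptor TIE2, fell by 0.085 ± 0.016, and the adhesion molecule Esam by 0.048 ± 0.011. Pecam1 (-0.052), Abcb1a (-0.050) and Slco1a4 (-0.016) were not called, and the glucose transporter Slc2a1 differed by 0.037 in the other direction without a call. Vascular genes outside the list, chosen after their values were seen, were also among the calls: the endothelial Cd93 fell by 0.107 ± 0.016, and the smooth muscle and pericyte genes Acta2, Rgs5 and Tagln by 0.131 ± 0.023, 0.128 ± 0.025 and 0.076 ± 0.014. The chemokine Cxcl12 fell by 0.121 ± 0.028.

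With source as a covariate Cd93 was called at -0.138 (adjusted p = 0.0218), while Cldn5 (-0.156, adjusted p = 0.13), Flt1 (-0.142, adjusted p = 0.0851) and the other vascular genes named above were not. Among UTM RW arrays alone Cldn5 differed by -0.126 (adjusted p = 0.211) and Tagln by -0.013.

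All 10 choroid plexus markers measured had differences above 0, of which 4 were called, and their median was 0.293 units. Over all probe sets 0.384% were called higher. The choroid plexus is the epithelium that secretes cerebrospinal fluid. It lies in the ventricle beside the hippocampus and is not hippocampal tissue. Kcnj13, a potassium channel of that epithelium and outside the list, illustrates the distribution: earlier strains ran from 7.40 in BXD13 to 8.76 in BXD33 (median 8.05) and later strains from 7.52 in BXD86 to 9.39 in BXD89 (median 8.55). The later strains covered most of the earlier range and extended above it, with 29 of 39 above the earlier median. Its difference was 0.474 ± 0.113 (SE, limma adjusted p = 0.0253).

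Clic6, a chloride channel family member, differed by 0.487 ± 0.125 through 1 probe set and by 0.223 ± 0.055 through the brighter of its probe sets. The water channel Aqp1 rose by 0.278 ± 0.063, the homeobox factor Otx2 by 0.198 ± 0.051 and the bicarbonate transporter Slc4a5 by 0.149 ± 0.037. Ttr, the transthyretin carrier and the most abundant marker, differed by 0.422 ± 0.169 and was not called (limma adjusted p = 0.336), nor were Kl (0.314), Folr1 (0.308) and Sostdc1 (0.311). The mean of the 10 markers ran from 7.77 to 8.70 over earlier strains and from 7.86 to 9.07 over later strains. The other named rises included the coagulation factor F5 by 0.270 ± 0.069, the anion exchanger Slc4a2 by 0.245 ± 0.060 and the retinol dehydrogenase Rdh5 by 0.244 ± 0.061. With RMA values Kcnj13, Otx2, F5, Slc4a2, Rdh5 and both probe sets of Clic6 were not called. With MAS5 values Kcnj13, Otx2, Rdh5, Slc4a5 and the Clic6 probe set with the larger difference were not called. With age as a covariate F5, Otx2 and that Clic6 probe set lost their calls. In the 68 fits that left out a strain, F5 kept its call in 38, the Clic6 probe set with the larger difference in 37, Otx2 in 40 and Rdh5 in 51. The amount of choroid plexus in each dissection was not measured, and its part in these differences was not tested. No choroid plexus marker was called with source as a covariate, where the median of the list was 0.266.

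Some haemoglobin probe sets were higher in the later set as well, chosen after their values were seen because several genes share them. The alpha globin probe set of Hba-a1 and Hba-a2 with the largest difference rose by 0.348 ± 0.078 (SE, limma adjusted p = 0.0136), from a median of 8.89 (8.37 to 9.28) in earlier strains to 9.23 (8.45 to 10.2) in later strains. A beta globin probe set rose by 0.262 ± 0.062. Further probe sets of Hba-a1 and Hba-a2 were called at 0.293 and 0.260, and 1 of Hbb-b2 alone at 0.192. Other, dimmer globin probe sets did not pass: Hba-a1, the globin of the erythroid list, differed by -0.013 (limma adjusted p = 0.864), Hba-a2 alone by -0.0080 and another probe set of Hbb-b2 by 0.016. The alpha and beta probe sets named first differed with source as a covariate by 0.353 (adjusted p = 0.249) and 0.263 (adjusted p = 0.287), and among UTM RW arrays by 0.182 and 0.094, none of which was called. Neither of the 2 measured genes of the erythroid list was called. Alas2, the erythroid enzyme that starts haem synthesis, differed by 0.174 (adjusted p = 0.0543). The part of blood left in the tissue in these values was not tested.

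Microglia, the resident macrophages of the brain, had 9 markers measured. All 9 had differences below 0, with a median of -0.073 units, and 1 was called, beside 0.246% of all probe sets called lower. P2ry12, the purinergic receptor by which microglia sense injury, fell by 0.198 ± 0.050 (SE, limma adjusted p = 0.0365), from a median of 8.69 (7.83 to 9.08) to 8.44 (8.05 to 8.69). Of the 39 later strains 38 were below the earlier median. Its sign was opposite within batch 5, at 0.100. C1qa (-0.106) and Tyrobp (-0.088) were not called. The fractalkine receptor Cx3cr1 was not called through its brightest probe set (-0.073, limma adjusted p = 0.302), on which the count of the list rests, and was called through its other one (-0.103, adjusted p = 0.0246). Macrophage genes seen among the calls and chosen after their values were seen were F13a1, which fell by 0.062 ± 0.011, Mrc1, by 0.096 ± 0.023, and Cd53, by 0.099 ± 0.025. With source as a covariate P2ry12 (-0.155, limma adjusted p = 0.328), Mrc1 (adjusted p = 0.33), Cd53 (-0.068, adjusted p = 0.346) and F13a1 (-0.030, adjusted p = 0.436) were not called, and F13a1 differed by -0.013 among UTM RW arrays. P2ry12 and Cd53 also lost their call with age as a covariate and with RMA values, and each kept it in 53 of 68 fits that left out a strain.

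Of 10 markers of meninges and fibroblasts 3 were lower and none was higher, with a median of -0.031. Over all probe sets 0.246% were called lower. Dcn, the matrix proteoglycan decorin, fell by 0.213 ± 0.046 (SE, limma adjusted p = 0.00914), and 34 of 39 later strains were below the earlier median. Col3a1, a fibrillar collagen, fell by 0.086 ± 0.021 and the GABA transporter Slc6a13 by 0.067 ± 0.017. With source as a covariate Dcn differed by -0.250 (limma adjusted p = 0.195), Col3a1 by 0.0026 and Slc6a13 by 0.038, and none was called. Among UTM RW arrays, with 3 earlier strains, Dcn differed by -0.011, and Col3a1 and Slc6a13 by 0.057 and 0.0099. Col3a1 and Slc6a13 also lost their calls with RMA values, MAS5 values and quantile normalization. In the 68 fits that left out a strain, Slc6a13 kept its call in 39 and Col3a1 in 67. Igf2 (0.168) and Igfbp2 (0.216), which the choroid plexus also expresses, were above 0 and not called.

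For the resident neural cell types, none of 9 pyramidal neuron markers, 10 dentate granule neuron markers, 10 interneuron markers, 10 astrocyte markers and 11 myelin markers was called, and the list medians were 0.0014, -0.0015, 0.0067, -0.0003 and 0.032 units. Over all probe sets 0.631% were called, so that lists of this size can lack a call without standing apart. Among single genes of the named set, Fabp7, the fatty acid binding protein of radial glia and astrocytes, fell by 0.202 ± 0.040, Nnat, an imprinted proteolipid gene of neurons, by 0.187 ± 0.036, Plagl1, an imprinted zinc finger factor, by 0.170 ± 0.037, and Syt17, a synaptotagmin, by 0.167 ± 0.033. Apart from Plagl1 none of the 11 imprinted genes of the list was called. Zic1, a zinc finger factor of medial forebrain structures, rose by 0.287 ± 0.070. None of these 5 was called with source as a covariate: Fabp7 differed by -0.277 (limma adjusted p = 0.0956), Nnat by -0.205 (adjusted p = 0.186), Plagl1 by -0.165 (adjusted p = 0.295), Syt17 by -0.249 (adjusted p = 0.0524) and Zic1 by 0.503 (adjusted p = 0.109). Among UTM RW arrays Plagl1 differed by -0.025 and Zic1 by 0.739. Zic1 also lost its call with RMA values, with MAS5 values and with strain means not adjusted for sex and batch. Thalamus markers, which would mark dissection beyond the hippocampus, had no call among 10, with 9 above 0 and a median of 0.027.

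**Figure D2:**
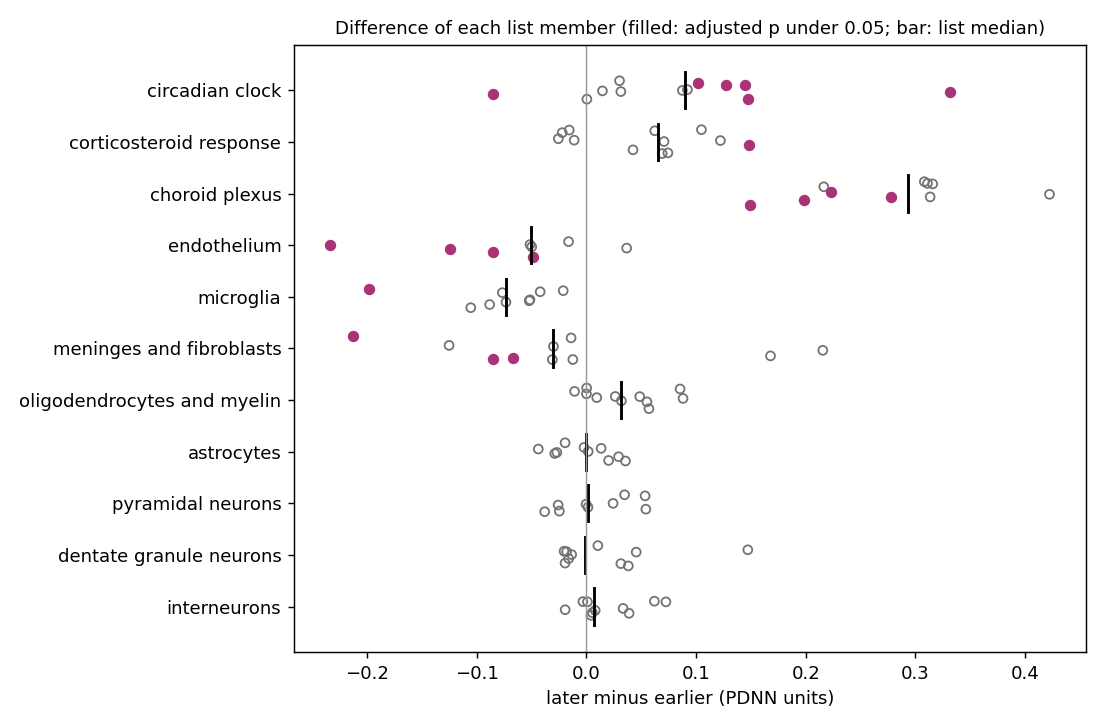
Later minus earlier in PDNN units (x axis) for each measured member of 11 gene lists (rows), each through its probe set with the highest mean; filled points are called at an adjusted p below 0.05 and bars are list medians. Choroid plexus markers lie above 0 and microglial markers below 0, endothelial markers lie below 0 except Slc2a1, and the neuronal and astrocyte lists are centred near 0.

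Calls were unevenly placed. On chromosome 4, 32 of 2094 probe sets were called (1.53%, against 0.631% over all), and on chromosome 10, 28 of 1657 (1.69%). No other chromosome exceeded 1.04%, the value on chromosome 16. Neighbouring genes of recombinant inbred strains are inherited together in long blocks from either parent.

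From Rnf20 to Tnc on chromosome 4, limits chosen after the values were seen, 78 genes were measured through 159 probe sets, and 16 probe sets of 11 genes were called (10.1%). In the order of the GRCm38.p6 annotation, Rnf20, a histone H2B ubiquitin ligase, Smc2os, a transcript opposite Smc2, the repair factor gene Rad23b, Frrs1l and Epb41l4b were lower in the later set. Slc31a1, the copper transporter, Hdhd3, Alad, the polymerase subunit gene Pole3 and the proton pump subunit gene Atp6v1g1 were higher, and Tnc, which encodes tenascin C, was lower. Of the 16 probe sets 6 were also called between DBA/2J and C57BL/6J, and in all 6 the sign of later minus earlier was that of DBA/2J minus C57BL/6J. Over the whole genome 34 of the 284 calls (12%) were also called between the parents, against 7.28% of all probe sets, and of these 12 had that sign and 22 the opposite.

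Alad encodes delta-aminolevulinate dehydratase, the second enzyme of haem synthesis. Its strain values fell into separate levels. Earlier strains ran from 8.09 in BXD9 to 9.01 in BXD22 with a median of 8.26, and later strains from 8.22 in BXD86 to 9.06 in BXD74 with a median of 8.90. C57BL/6J was at 8.33 and DBA/2J at 8.86. Of the earlier strains 24 were nearer to C57BL/6J and 5 to DBA/2J, whereas of the later strains 9 were nearer to C57BL/6J and 30 to DBA/2J. The difference was 0.432 ± 0.064 (SE, limma adjusted p = 1.91e-05), and it was 0.284 to 0.534 within the 7 batches. These values are those of 1 Alad probe set. The other differed by 0.077 and was not called (limma adjusted p = 0.0664), nor was it between the parents (0.062, limma adjusted p = 0.819).

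Frrs1l, a component of AMPA receptor complexes, showed the mirror image. Earlier strains had a median of 9.76 (9.14 in BXD24 to 9.86 in BXD42) and later strains a median of 9.12 (8.99 in BXD90 to 9.87 in BXD48a), beside 9.68 in C57BL/6J and 9.25 in DBA/2J. There were 23 of 29 earlier and 8 of 39 later strains nearer to C57BL/6J. The difference was -0.402 ± 0.063 (SE, limma adjusted p = 8.77e-05). The other, brighter Frrs1l probe set differed by -0.094 and was also called (limma adjusted p = 0.00297). Between the parents it was not called (-0.154, limma adjusted p = 0.345). Alad and Frrs1l mostly went together: both were nearer to DBA/2J in 5 earlier and 28 later strains, both nearer to C57BL/6J in 23 earlier and 6 later strains, and they disagreed in 1 earlier and 5 later strains.

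Hdhd3, annotated next to Alad, rose by 0.201 ± 0.035, and Smc2os fell by 0.218 ± 0.042. Epb41l4b, a FERM domain protein next to Frrs1l, fell by 0.296 ± 0.063 through 1 probe set. Its other probe sets differed by -0.0205 and -0.0176 and were not called. Rad23b fell by 0.160 ± 0.034 and Atp6v1g1 rose by 0.140 ± 0.036. In the 68 fits that left out a strain, this Atp6v1g1 probe set kept its call in 31 and a Rnf20 probe set in 32. Hdhd3, Smc2os, Epb41l4b and Rad23b kept theirs in all 68. Atp6v1g1 also lost its call with MAS5 scores and with strain means not adjusted for sex and batch. With source as a covariate Alad (0.587, limma adjusted p = 0.00248), Frrs1l (-0.544, adjusted p = 0.00641), Atp6v1g1 (0.329, adjusted p = 0.00382) and Rad23b (-0.312, adjusted p = 0.0199) were called. So were Hdhd3 (0.250, adjusted p = 0.033), Epb41l4b (-0.461, adjusted p = 0.0467) and Smc2os (-0.282, adjusted p = 0.0482). That model rests on arrays. Without the source it gave Alad a limma adjusted p of 1.6e-11, against 1.91e-05 from strain values. Of the 32 calls on chromosome 4, 9 were called with source as a covariate, and of all 284 calls 30 were. Among UTM RW arrays alone, with 3 earlier strains, Atp6v1g1 (0.445, limma adjusted p = 0.00522), Alad (0.601, adjusted p = 0.0422) and Pole3 (0.1395, adjusted p = 0.0488) were called. Frrs1l (-0.585, adjusted p = 0.054), Hdhd3 (0.316, adjusted p = 0.0546), Epb41l4b (-0.481, adjusted p = 0.113), Rad23b (-0.240, adjusted p = 0.124) and Smc2os (-0.217, adjusted p = 0.176) were not. The largest difference of all, -0.510 ± 0.107 (limma adjusted p = 0.00688), was that of a probe set with no gene symbol in the annotation, at 8.08 in earlier and 7.57 in later strains. It was also called between the parents, at -0.639.

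**Figure D3:**
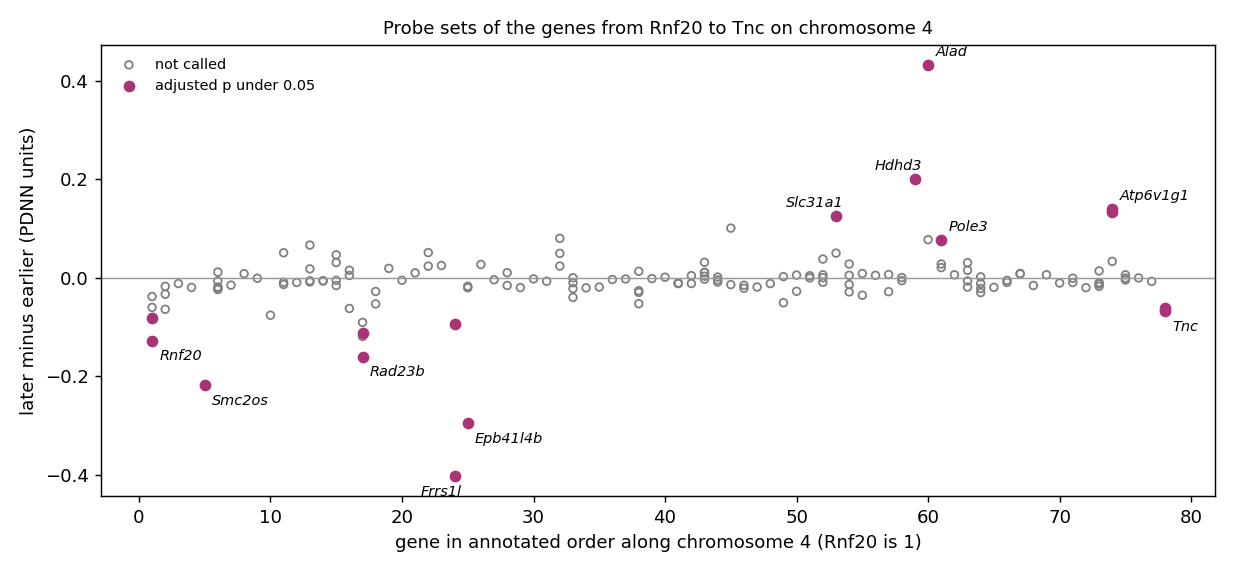
Later minus earlier in PDNN units (y axis) for the 159 probe sets of 78 genes from Rnf20 to Tnc, placed by gene order on chromosome 4 (x axis); filled points are called at an adjusted p below 0.05 and carry gene names. The called probe sets up to Epb41l4b lie below 0 and those from Slc31a1 to Atp6v1g1 above it, among genes whose differences are near 0.

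**Figure D4:**
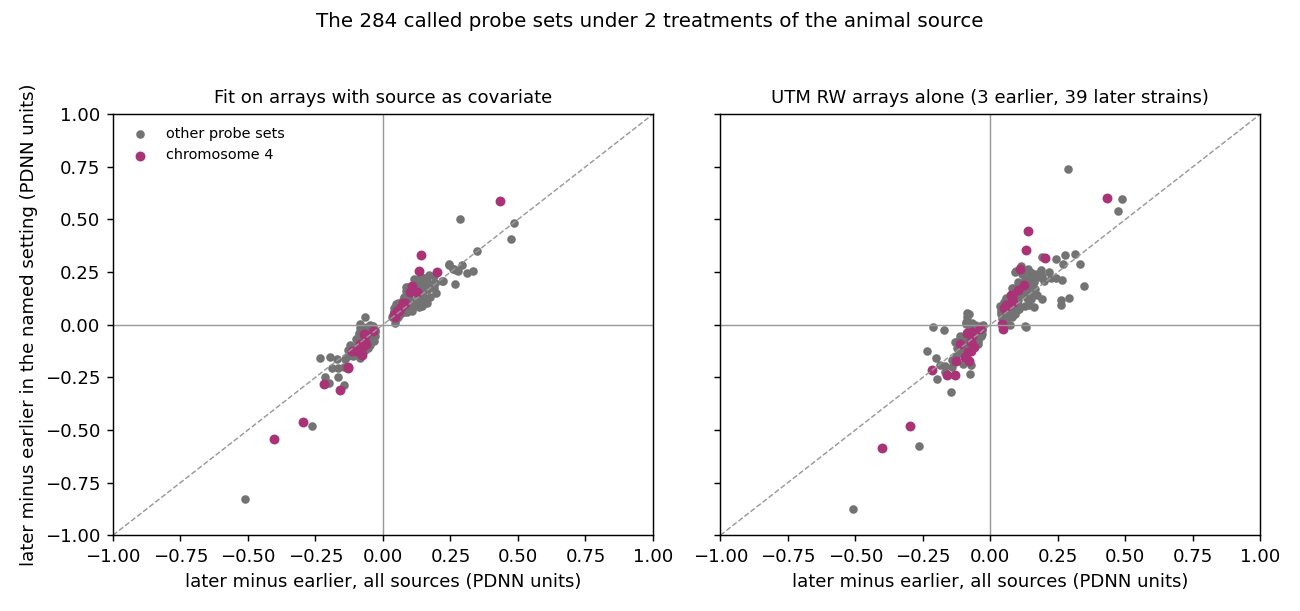
The 284 called probe sets, with later minus earlier over all sources (x axis, PDNN units) against the same difference (y axis) with source as a covariate (left) and among UTM RW arrays alone (right); the dashed line marks equality and chromosome 4 is coloured. In the left panel 282 and in the right panel 273 of the 284 keep their sign, and the largest chromosome 4 differences lie farther from 0 than on the x axis. The 284 were called on data that hold these same arrays, so that kept signs are no independent test.

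A last comparison asked whether transcripts varied more among the strains of either set. No probe set was called for a difference in the absolute deviation from the set median (limma, smallest adjusted p = 0.20; 3477 at an unadjusted p below 0.05), which is 0% of those tested. The median SD was 0.062 units over earlier and 0.056 over later strains, and the SD was larger in the later set for 33.5% of probe sets.

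Some genes known to differ between the parents or between C57BL/6 substrains were nevertheless distributed in unlike ways, described here without a test. Of the 9 measured genes in the list of such variants none was called between the sets, beside 0.631% of all probe sets. The median difference of the list was -0.0087 units. Gabra2 encodes the alpha 2 subunit of the GABA-A receptor. Its brightest probe set was at 8.88 in C57BL/6J, 9.82 in DBA/2J and 9.55 in the related substrain C57BL/6ByJ. None of the 23 strains BXD1 to BXD32 was nearer to C57BL/6J, against 3 of the 6 strains BXD33 to BXD42 and 12 of the 39 later strains. The strains at that level stood apart from the rest. The mean of the sets differed by -0.186 ± 0.063, which was not called (limma adjusted p = 0.188).

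Wdfy1, an endosomal adaptor protein, was at 7.51 in C57BL/6J and 8.11 in DBA/2J through the probe set with the smallest adjusted p for spread. No strain of BXD1 to BXD32, 1 of BXD33 to BXD42 (BXD38, at 7.61) and 17 of 39 later strains were nearer to C57BL/6J. The SD was 0.122 over earlier and 0.292 over later strains (limma adjusted p for spread = 0.20). Entpd4 and Entpd4b, lysosomal and Golgi nucleotidases, share 3 probe sets, all of them called, of which 1 chosen after the values were seen is described. It was at 9.20 in C57BL/6J and 8.81 in DBA/2J. No strain of BXD1 to BXD32, 1 of BXD33 to BXD42 (BXD33, at 9.21) and 16 later strains were nearer to C57BL/6J, and the set difference was 0.163 ± 0.040 (limma adjusted p = 0.0296). The other Entpd4b;Entpd4 probe sets differed by 0.183 and 0.155. Alad behaved differently: the level of DBA/2J was found in 5 of the BXD1 to BXD32 strains and in none of BXD33 to BXD42.

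Other known variants are given by their set differences alone, which do not show how the strains were distributed. Of 15 transcripts known to vary among BXD strains, Alad was the only one called, and the median difference of the list was -0.0053. The share called over all probe sets was 0.631%. Rpgrip1 differed by -0.336 ± 0.177, Stk25 by 0.140 ± 0.155 and Glo1, the glyoxalase, by -0.102 ± 0.073, each within the spread among strains. Erdr1 and Pisd-ps3, with large parental differences, differed between the sets by 0.072 and 0.0017 through their brightest probe sets. In the same way Gpnmb differed by -0.0006, Klrd1 by -0.0037, Taar1 by -0.0087 and Pcsk4 by -0.0088. Nnt differed by -0.093 and was not called (limma adjusted p = 0.129).

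**Figure D5:**
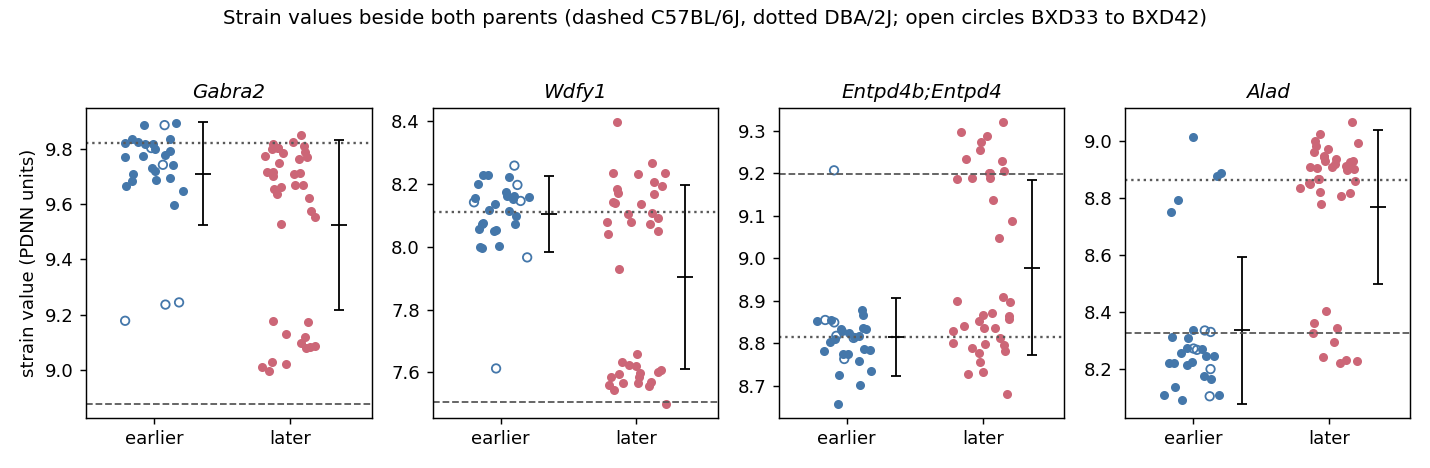
Strain values in PDNN units (y axis) of Gabra2, Wdfy1, a shared Entpd4 probe set and Alad in earlier strains (blue, open circles for BXD33 to BXD42) and later strains (red), with mean and SD beside each set and the levels of C57BL/6J (dashed) and DBA/2J (dotted). For the first 3 genes the level near C57BL/6J holds later strains and at most 3 open circles, whereas for Alad both levels hold strains of both sets.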

How the data were processed

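Hippocampal RNA of 68 BXD strains was analysed within all strains of the series. PDNN, RMA and MAS5 values are scores per probe set and array deposited by the authors, and raw intensities were not used here. Arrays have no counting depth, and their number limits the precision. The 64 control probe sets were left out, the array of mixed sex was left out, and the labelled technical duplicate of a B6D2F1 pool was averaged with its mate. Strain, sex and batch were fitted to 199 columns (limma 3.58.1; R 4.3.3; files read through data.table, version 1.17.8). The strain values entered a second limma model of later minus earlier, with Benjamini-Hochberg adjustment over all 45037 probe sets, two-sided, at 0.05. Spread was tested in the same way on absolute deviations. Parents were compared within the first model. The procedure was tested on simulated data.

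Gene symbols came from the platform annotation, which gave 1 symbol to 34945 probe sets, and chromosomes from RefSeq on GRCm38.p6. Genes were named if among the 10 calls that rose or the 10 that fell most, leaving out clone and predicted names and probe sets of several genes, or as members of 27 gene lists through their brightest probe set, or where the text says that they were chosen after their values were seen. The sets, the lists and the named genes were chosen with earlier results of these data known. Labels do not say which pools shared litters or cages, so that p-values of the model on strain values measure the spread among strains only. Those of the model with source as a covariate rest on arrays. Alternatives were other summaries, normalizations, covariates and subsets of arrays or strains.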

Additional observations from a re-analysis of the deposited data

Results flagged for a closer look

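Nnat in BXD34, at 10.2 PDNN units, lay below the other 5 strains of BXD33 to BXD42, of which the nearest was at 10.6. The gap was 0.729 of the range of these 6 strains, against a critical value of 0.625, and it was 1 of 20 genes looked at in this way. Chance gives such a gap in about 1 of 20 groups.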

How the results depend on the processing

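The 284 calls between the sets became 119 with MAS5 scores, 179 when only the 18847 probe sets averaging at least 8 were tested, 80 at an adjusted p of 0.01, 440 with the ACTB 3′/5′ ratio as a covariate, 771 in a model on arrays with the strain as a random block and 79 when that model also had the source. UTM RW arrays alone gave 450 and Glenn arrays alone, with 26 earlier and 2 later strains, 2223. Other settings stayed within 1.5 times, among them RMA scores with 210 and removal of the arrays with disagreeing headers, chosen after seeing the data like the Glenn subset, with 213. Leaving out each strain gave 193 (without BXD42) to 363 (without BXD22). The count of 0 for spread became 1 with sister substrains averaged, 9 with deviations from the set mean and 0 to 1 with a strain left out.

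Among the genes named, signs turned with source as a covariate for Col3a1 (0.0026) and Slc6a13 (0.038), in UTM RW arrays for Col3a1 (0.057), Slc6a13 (0.0099), Per1 (-0.0054) and Arntl (0.035), and in Glenn arrays for Slc6a13 (0.0074), Per2 (-0.051) and Tnc (0.0005). Within single batches, as differences of array means, they turned for beta globin (-0.001 in batch 1, -0.066 in batch 3), Clic6 (-0.077), Rdh5 (-0.039), Nr1d2 (-0.0014), Atp6v1g1 (-0.063) and Slc31a1 (-0.026) in batch 4, P2ry12 (0.100), Esam (0.0054) and Rgs5 (0.107) in batch 5, and Nnat (0.100), Syt17 (0.029), Per2 (-0.021) and Rad23b (0.010) in batch 6. The cause was not tested. The Alad probe set with the larger difference kept its sign and its call in all 20 settings tried and with each strain left out. No paired analysis was possible because replicate numbers were given in accession order and pair no samples.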

Other observations

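Several other lists of genes had no member called through its brightest probe set and small medians, beside 0.631% called and a median of -0.0041 PDNN units over all probe sets. Among the 18847 probe sets averaging at least 8, tested alone, the median was 0.0036 and 179 were called. All 10 glutathione and detoxification genes measured had differences above 0, with a median of 0.041, among them the glutathione transferase Gsta4 (0.066), catalase (Cat, 0.078) and the lipid peroxide reductase Gpx4 (0.072). Differences were above 0 also in 13 of 15 nuclear genes of the respiratory chain (median 0.017), 7 of 8 ribosomal protein genes (0.017), 8 of 10 MHC class I and interferon response genes (0.014) and 5 of 5 genes of X inactivation and escape (0.019). They were below 0 in 8 of 10 ionotropic glutamate receptor genes (median -0.013), 5 of 8 GABA-A receptor genes (-0.012), 7 of 9 heat shock genes (-0.020), 7 of 12 adult neurogenesis genes (-0.013) and 3 of 3 Y-linked genes (-0.023). With source as a covariate the medians of the GABA-A receptor and Y-linked genes were above 0, at 0.0089 and 0.031, and among UTM RW arrays those of the GABA-A receptor (0.016), Y-linked (0.040) and adult neurogenesis genes (0.0094) were. The heat shock genes Hspb1 (-0.077, limma adjusted p = 0.0876) and Hsph1 (-0.067, limma adjusted p = 0.106) had the smallest adjusted p among the genes of these lists.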
